A study of Mus musculus with 9 samples.

Results

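Oxidative phosphorylation (OXPHOS) subunit genes are the nuclear genes for the proteins of respiratory complexes I to IV and of the ATP synthase, also called complex V. They were taken by mouse symbol. Symbols starting with Ndufa, Ndufb, Ndufc, Ndufs or Ndufv stood for complex I, Sdha to Sdhd for complex II, Uqcr and Cyc1 for complex III, Cox4 to Cox8 for complex IV and Atp5 for complex V, with pseudogenes and the Ndufaf assembly factors left out. This gave 88 protein-coding genes, of which 85 reached a CPM (counts scaled to the size of the library) of 1 in at least 1 sample and were tested, among 15069 tested genes and 37620 genes in the files. The 85 were 38 genes of complex I, 4 of complex II, 9 of complex III, 17 of complex IV and 17 of complex V. Cox8c and a second identifier of Ndufb8 had 0 counts in every sample, which allows up to 3 counts per library, and Cox7b2 had 62 counts over all samples. The names also take in 3 genes whose products are not subunits. Cox4nb encodes a protein of the endoplasmic reticulum membrane complex, Atp5sl is known as an assembly factor of complex I, and Atp5s is named for a coupling factor that is not a core part of the ATP synthase. Ndufa4 and its relative Ndufa4l2 are counted with complex I by their names, although the Ndufa4 protein is known as a complex IV subunit.

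The samples were ribosome-associated RNA from CA3/CA2 of PV-Cre; Rpl22HA/HA mice, in which Cre from the parvalbumin gene leads parvalbumin interneurons (PV INs) to carry an HA-tagged ribosomal protein L22. All mice carried these alleles. A lentivirus with a non-target shRNA (shNT, 5 samples) or with an shRNA against Ablim3 (shRNA, 4 samples) was injected into the DG at 2 months of age, and tissue was taken 2 weeks later, with 6 male and female mice pooled per sample. The comparison asks which transcripts of PV INs differ when mossy fiber inputs onto them are increased.

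Complexes I to IV pass electrons from NADH and succinate to oxygen and pump protons out of the mitochondrial matrix at complexes I, III and IV, and complex V lets the protons return while it makes ATP. Complexes I, III and IV have a catalytic core joined by accessory subunits, complex II has 4 subunits in all, and complex V is a catalytic head on a rotor in the membrane. PV INs fire fast trains of action potentials and are known for dense mitochondria and a high demand for ATP. Mitochondrial DNA encodes the remaining core subunits of complexes I, III, IV and V, and all 13 of these genes are listed at 0 counts in every sample, so the values below describe the nuclear subunits alone.

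Nuclear OXPHOS genes are known as targets of nuclear respiratory factor 1 (NRF1), of ETS family factors such as GABP, and of YY1. Start windows from RefSeq (table of the GRCm38.p6 build), from 250 bases before to 50 bases after the start of the gene, were held for 69 of the 85 genes. The letters of an NRF1 site, GCGCATGCG on either strand, occurred in 8 of these 69 (11.6%) and in 1.95% of the 27025 genes with such a window. The ETS letters CCGGAAG occurred in 16 of 69 (23.2%) and in 9.93% of all, and the YY1 letters AAGATGGC in 11 of 69 (15.9%) and in 3.19% of all. Over the 17492 protein-coding genes alone the shares were 2.61%, 12.9% and 3.57%. The NRF1 and ETS letters occurred together in 4 members, and 39 of the 69 held none of the 3 motifs.

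The 250 bases before the start are shown for the gene with the lowest fold change among those with NRF1 letters upstream, in each of complexes I, IV and V. Capitals mark motif letters. The block of capitals around ATGC is a pair of NRF1 matches, 1 on each strand, that overlap, and the second block of Cox6a1 is the ETS letters on the other strand.
Ndufa11: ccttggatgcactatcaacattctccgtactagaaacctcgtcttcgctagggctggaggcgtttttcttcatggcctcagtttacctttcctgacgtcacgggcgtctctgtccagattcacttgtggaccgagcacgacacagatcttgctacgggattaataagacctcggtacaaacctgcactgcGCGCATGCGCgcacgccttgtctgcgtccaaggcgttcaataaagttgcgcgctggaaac
Cox6a1: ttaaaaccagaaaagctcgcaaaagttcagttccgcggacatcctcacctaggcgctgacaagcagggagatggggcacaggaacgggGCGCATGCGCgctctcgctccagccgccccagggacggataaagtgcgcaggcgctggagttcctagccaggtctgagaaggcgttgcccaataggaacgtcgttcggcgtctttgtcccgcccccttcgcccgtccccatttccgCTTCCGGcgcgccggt
Atp5k: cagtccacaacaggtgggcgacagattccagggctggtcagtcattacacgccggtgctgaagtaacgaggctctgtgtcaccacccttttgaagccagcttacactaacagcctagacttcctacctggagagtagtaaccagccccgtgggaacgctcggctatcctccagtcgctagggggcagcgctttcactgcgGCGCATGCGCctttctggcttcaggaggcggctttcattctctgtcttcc
Each occurs once on its chromosome of the mm9 build: Ndufa11 at chr17:56856935-56857184 (plus strand), Cox6a1 at chr5:115798968-115799217 (minus strand) and Atp5k at chr5:108863419-108863668 (minus strand). These windows were placed by the RefSeq starts, and of their 250 bases 49 of Atp5k and 23 of Cox6a1, which hold most of the NRF1 block of Atp5k and the ETS block of Cox6a1, lie inside the gene as the mm9 annotation used here draws it. The matches describe letters and not bound sites.

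Between 18281719 and 34578837 reads were counted on genes per sample, and member genes took 2.97% to 4.55% of them in the shNT samples and 1.94% to 2.95% in the shRNA samples. Uniquely aligned reads outside annotated exons made up 9.76% to 18.6% in the shNT samples (highest in shNT 2) and 12.4% to 27.2% in the shRNA samples (highest in shRNA 4). Alignments at more than 1 place made up 11.1% to 14.4% in shNT and 8.24% to 10.8% in shRNA. Many small subunit genes have processed pseudogenes, reads shared with such copies were not counted, and their part in the fold changes was not tested. Ablim3, the target of the shRNA in the DG, was at 16.9 ± 5.16 CPM (SD, n = 5) in shNT and 18.5 ± 3.42 CPM (SD, n = 4) in shRNA. This RNA is from CA3/CA2, so it does not check the knockdown, for which the paper reports qRT-PCR in the DG. All 11 PV IN markers were detected.

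The OXPHOS genes lay below the shNT level in the shRNA samples as a group, and no single gene among them passed the study's threshold. The log2 fold change of shRNA over shNT was negative in 84 of the 85 genes, with a median of -0.71, while the median of all 15069 genes was 0.11. With edgeR's quasi-likelihood test and Benjamini-Hochberg adjustment (FDR), the study's rule of an FDR under 0.05 with a 1.5-fold difference took 0 members as lower and 0 as higher, where 0.0133% of all tested genes were lower and 1.74% higher. The share called higher over all genes was 0% without shNT 3, shNT 4, shNT 5, shRNA 1 or shRNA 3 and 6.68% without shNT 1. The lowest FDR of a member was 0.0630 and the highest 0.814 (edgeR quasi-likelihood test). At an unadjusted p under 0.05 in the same test, 71 of 85 members were lower, against 13.4% of all genes, and 0 were higher, against 20.7%. At an FDR under 0.1 with a 1.5-fold change, 55 of 85 were lower, against 4.26% of all genes. Other tests with the same thresholds drew the line differently. The likelihood ratio test, also of edgeR, called 52 members lower (3.60% of all genes). DESeq2 called 60 (5.53%) and limma voom with sample quality weights 52 (4.10%). Without shNT 1, edgeR's quasi-likelihood test called 35 members lower (2.72% of all genes), and without any other single sample 0. In bulk RNA fewer cells of a type and less RNA per cell cannot be told apart.

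The summed level of all members was 30015, 39077, 34702, 43416 and 49397 CPM in shNT 1 to 5 and 29775, 29333, 28188 and 15955 CPM in shRNA 1 to 4. Every shRNA sample thus lay below every shNT sample in this sum, with shRNA 1 to 3 just under shNT 1 and shRNA 4 far under all others. Gene by gene the groups were less cleanly apart. In 11 members every shRNA sample was below every shNT sample, against 6.68% of all tested genes, and in 0 members every shRNA sample was above, against 8.97%. These 11 were Ndufa8, Ndufb2, Ndufb9, Ndufc1, Ndufs4, Ndufv1, Ndufv2, Sdhd, Cox7b, Cox8b and Atp5j. This count was 61 without shNT 1 (11.4% of all genes), 54 without shRNA 1 (12.8%) and 9 to 23 without any other sample (6.54% to 11.1%). In 43 further members shRNA 2, 3 and 4 lay below all shNT samples and shRNA 1 did not. shRNA 4 was the lowest of the 9 samples in 79 members, shNT 1 the lowest shNT sample in 70, and shNT 5 the highest of the 9 in 75. Without shRNA 4 the median log2 fold change was -0.59 and 65 members were lower at an unadjusted p under 0.05 (11.0% of all genes), and without both shNT 2 and shRNA 4, a choice made after seeing the data, these were -0.53 and 54 (1356 of all 15069 genes).

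**Figure D1:**
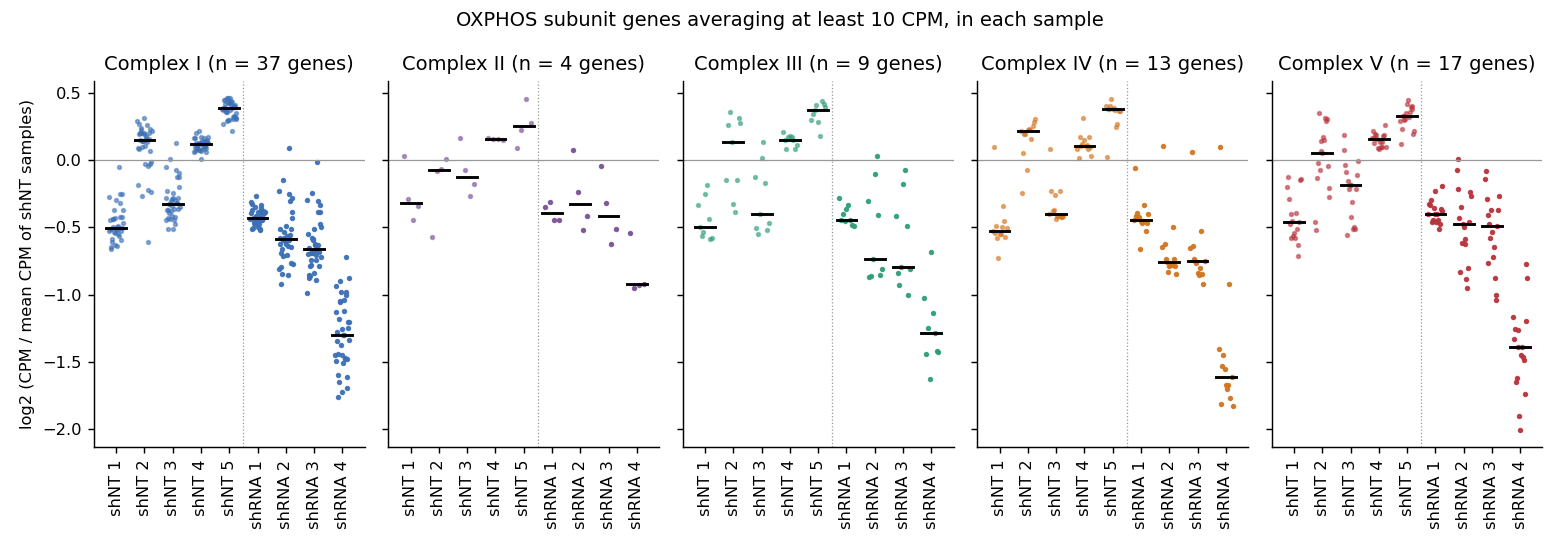
Level of each OXPHOS gene averaging at least 10 CPM (80 genes) in each of the 9 samples, as log2 of its TMM-normalized CPM over the mean of the 5 shNT samples, by complex; each point is a gene and each bar the median over genes. In each complex the median of shRNA 4 is the lowest of the 9 samples, and shNT 1 and shNT 3 lie below the other shNT samples.

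Complex I, which oxidises NADH, had the most genes. Of its 38 genes 34 were lower at an unadjusted p under 0.05, 38 had a negative log2 fold change and 7 had groups that did not overlap. Over all genes these shares were 13.4%, 42.1% and 6.68%. The median log2 fold change of complex I was -0.70. Among genes averaging at least 10 CPM, the most negative values were those of small accessory subunits, Ndufc1 (-0.89), Ndufa2 (-0.88) and Ndufa1 (-0.88). Ndufc1 (mm9, chromosome 3 from 51208599 to 51212910) was at 198, 336, 202, 301 and 367 CPM in shNT 1 to 5 and at 197, 156, 152 and 101 CPM in shRNA 1 to 4. The 4 shRNA samples lay under the 5 shNT samples, with shRNA 1 and shNT 1 almost level. Ndufc1 averaged 281 ± 77.6 CPM in shNT (SD, n = 5) and 151 ± 39.2 CPM in shRNA (SD, n = 4), and its log2 fold change was -0.89 with a standard error of 0.25 (FDR = 0.0630, edgeR quasi-likelihood test).

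Most accessory genes of complex I had more negative log2 fold changes than every core subunit, with some overlap. The core subunits Ndufs7, Ndufv2, Ndufs8 and Ndufs3 had -0.62, -0.60, -0.55 and -0.48. The accessory genes not below Ndufs7 were Ndufa12 (-0.61), Ndufab1 (-0.58), Ndufa10 (-0.45) and Ndufa9 (-0.38). Ndufa4l2 (-0.38), placed in complex I by its name alone, was not below Ndufs7 either and averaged under 10 CPM. These genes were picked after their values were seen, and the difference between core and accessory genes was not tested. The order also depended on coding length. After a correction for coding length, described below, the core subunit Ndufs1 had -0.50. The accessory genes Ndufc1, Ndufa2 and Ndufa1 then had -0.43, -0.45 and -0.41. Ndufs1, a large core subunit that carries iron-sulfur clusters, had the log2 fold change nearest to 0 in complex I, -0.22 with a standard error of 0.22 (FDR = 0.483, edgeR quasi-likelihood test). It was at 418, 284, 472, 486 and 501 CPM in shNT 1 to 5 and at 332, 459, 429 and 263 CPM in shRNA 1 to 4, so that the groups overlapped widely. shNT 2, among the highest samples for Ndufc1, was the lowest shNT sample for Ndufs1. Ndufv1, which binds NADH and the flavin, was at 543 ± 101.5 CPM (SD, n = 5) in shNT and 398 ± 68.9 CPM (SD, n = 4) in shRNA, with groups that did not overlap and a log2 fold change of -0.45.

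Complex II, succinate dehydrogenase, is the only complex with all of its subunits encoded in the nucleus and the only one shared with the TCA cycle. Its median log2 fold change was -0.49 over 4 genes, and 3 of the 4 were lower at an unadjusted p under 0.05 (13.4% of all genes). The catalytic flavoprotein Sdha had the value nearest to 0, at 932, 615, 1024, 1026 and 973 CPM in shNT 1 to 5 and 719, 961, 889 and 628 CPM in shRNA 1 to 4. The lowest of all 9 samples for Sdha was shNT 2, and its log2 fold change was -0.19 with a standard error of 0.21 (FDR = 0.514, edgeR quasi-likelihood test). The iron-sulfur subunit Sdhb had a log2 fold change of -0.43. The membrane anchors Sdhc and Sdhd had -0.62 and -0.56. Sdhd was lower in every shRNA sample (180 to 254 CPM) than in any shNT sample (268 to 412 CPM). After the correction for coding length this order turned, with -0.43 for Sdha, -0.30 for Sdhc and -0.23 for Sdhd.

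Complex III passes electrons from ubiquinol to cytochrome c. Of its 9 genes 7 were lower at an unadjusted p under 0.05 (13.4% of all genes), and the median log2 fold change was -0.83. Groups that did not overlap were found in 0 of the 9, where 6.68% of all genes had every shRNA sample below. The small subunits Uqcrh (-0.90), Uqcr10 (-0.86) and Uqcrq (-0.85) had the most negative values. Uqcrh, the hinge protein (chromosome 4 from 115739570 to 115747676), was at 245, 457, 257, 390 and 493 CPM in shNT 1 to 5 and at 264, 204, 184 and 138 CPM in shRNA 1 to 4. Only shRNA 1 reached into the shNT range. The redox subunits were nearer to 0, with -0.61 for the Rieske protein Uqcrfs1 and -0.48 for cytochrome c1, Cyc1. The large core proteins Uqcrc1 and Uqcrc2 had -0.32 and -0.31 and did not pass an unadjusted p of 0.05. Uqcrc1 averaged 1004 ± 181 CPM (SD, n = 5) in shNT and 806 ± 137.1 CPM (SD, n = 4) in shRNA.

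Complex IV, cytochrome c oxidase, had a median log2 fold change of -0.84 over 17 genes, next to that of complex III. The order of these medians was not stable, with complex III lower than IV in voom (-0.76 and -0.72) and without shNT 3 or shRNA 1, and complex V the lowest, at -0.56, after a correction for exon length. After a correction for coding length the medians of complexes I to V lay closer together, at -0.38, -0.30, -0.39, -0.41 and -0.38. Differences between complexes were not tested. Of the 17 genes of complex IV, 14 were lower at an unadjusted p under 0.05 (13.4% of all genes). Groups that did not overlap were found in 2, Cox7b and Cox8b (6.68% of all genes). Cox4i1, the main form of the regulatory subunit 4, was at 909, 1523, 995, 1391 and 1734 CPM in shNT 1 to 5 and at 965, 839, 835 and 496 CPM in shRNA 1 to 4. Its groups overlapped only through shRNA 1, and its log2 fold change was -0.74 with a standard error of 0.26 (FDR = 0.0831, edgeR quasi-likelihood test). Cox5a, another nuclear subunit close to the core, had -0.78, but 38.7% of its exon bases overlap a gene on the other strand, which counting without strand cannot separate.

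The most negative values in complex IV at 10 CPM or more were those of Cox6a2 (-0.91), Cox7b (-0.90) and Cox7c (-0.89). Cox7b (chromosome X from 103211039 to 103217789) was at 474, 773, 483, 729 and 780 CPM in shNT 1 to 5 and at 451, 390, 360 and 190 CPM in shRNA 1 to 4. All shRNA samples were below all shNT samples, and the log2 fold change was -0.90 with a standard error of 0.27 (FDR = 0.0668, edgeR quasi-likelihood test).

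Cox4nb, the only member above 0, lies next to Cox4i1 on chromosome 8 and is read in the opposite direction. Its annotated start and that of Cox4i1 are separated by 177 bases (chr8:123192013-123192189 of mm9), shown on the plus strand because both genes start from it, with the only motif match, the ETS letters on the other strand, in capitals. The first base of these capitals is 21 bases before the Cox4i1 start.
Cox4nb to Cox4i1: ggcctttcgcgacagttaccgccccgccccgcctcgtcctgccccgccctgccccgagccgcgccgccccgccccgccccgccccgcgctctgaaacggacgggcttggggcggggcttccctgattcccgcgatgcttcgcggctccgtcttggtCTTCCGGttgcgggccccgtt
Cox4nb was at 75.9, 59.9, 75.3, 71.6 and 72.1 CPM in shNT 1 to 5 and at 68.2, 76.3, 74.1 and 76.1 CPM in shRNA 1 to 4. The groups overlapped, and the log2 fold change was 0.05 with a standard error of 0.12 (FDR = 0.761, edgeR quasi-likelihood test), beside -0.74 for Cox4i1. The sign of Cox4nb turned negative without shNT 2 (-0.0011) and under several other settings.

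Complex V, which makes ATP, had a median log2 fold change of -0.61 over 17 genes, with 13 lower at an unadjusted p under 0.05 (13.4% of all genes). Groups that did not overlap were found in 1, Atp5j, near the share of all genes (6.68%). The most negative values were those of small subunits of the membrane part, Atp5k (-0.95), Atp5l (-0.94) and Atp5j2 (-0.87). Atp5k, subunit e (chromosome 5 from 108862263 to 108863467), was at 138, 261, 150.4, 234 and 280.1 CPM in shNT 1 to 5 and at 149, 110.02, 106 and 76.1 CPM in shRNA 1 to 4. The samples shRNA 2, 3 and 4 lay under the shNT range and shRNA 1 was level with shNT 3, with a log2 fold change of -0.95 and a standard error of 0.26 (FDR = 0.0630, edgeR quasi-likelihood test).

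The large subunits of the catalytic head, Atp5b and Atp5a1, had values nearer to 0, while Atp5e, a small subunit of the head's stalk, had -0.86. Atp5b, the catalytic beta subunit, was at 3620, 2753, 4500, 4578 and 4291 CPM in shNT 1 to 5 and at 3150.2, 3964, 3741 and 1575 CPM in shRNA 1 to 4. Only shRNA 4 lay outside the shNT range, and the log2 fold change was -0.35 with a standard error of 0.28 (FDR = 0.387, edgeR quasi-likelihood test). The alpha subunit Atp5a1 had a log2 fold change of -0.38 and averaged 2511 ± 500 CPM in shNT (SD, n = 5) and 1924 ± 575 CPM in shRNA (SD, n = 4). Per kilobase of transcript, Atp5b averaged 2061 CPM and Atp5a1 1016 CPM in shNT.

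**Figure D2:**
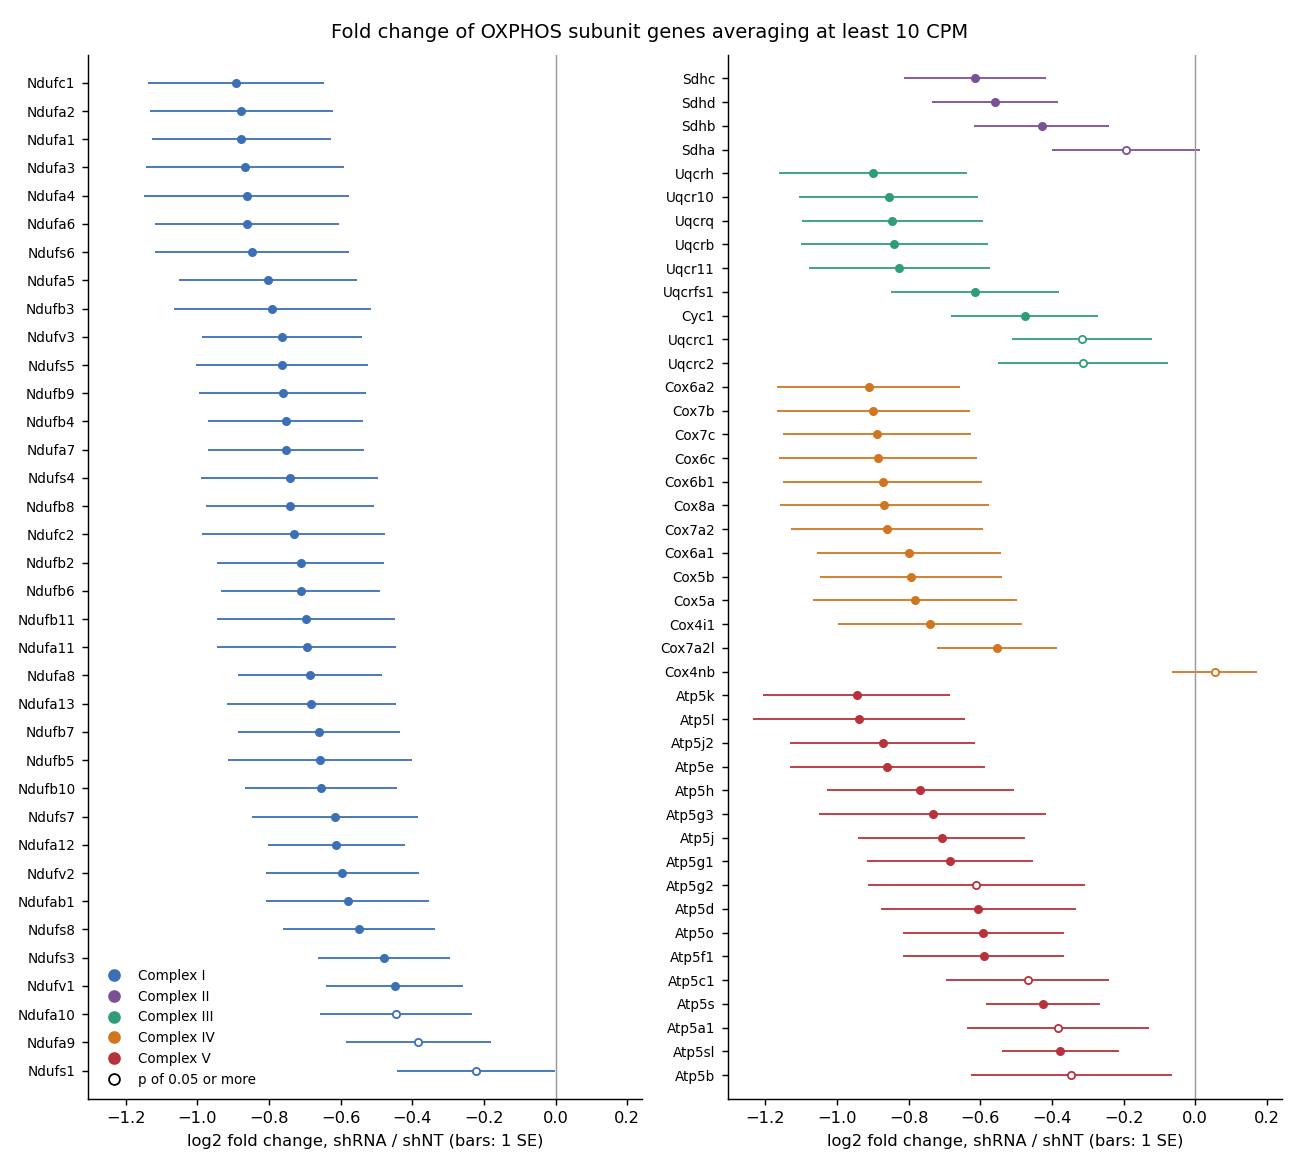
Log2 fold change of shRNA over shNT for 79 of the 80 OXPHOS genes averaging at least 10 CPM, ordered within complexes I (left) and II to V (right); points are edgeR quasi-likelihood estimates, bars are 1 standard error, and open points have an unadjusted p of 0.05 or more. All points but that of Cox4nb lie below 0, and Ndufs1, Sdha, Uqcrc2 and Atp5b lie nearest to 0 among the subunits of their complexes.

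Several subunits exist in forms encoded by different genes. In these samples the widely expressed forms dominated. Per kilobase of transcript, Cox4i1 averaged 1930 CPM in shNT and the lung form Cox4i2 1.19 CPM. Cox6a1 averaged 1370 CPM per kilobase and Cox6a2, known as the form of heart and skeletal muscle, 201 CPM per kilobase, so Cox6a2 was the tissue form least far below its partner. Cox6a2 was at 79.9, 125, 110.1, 164 and 181 CPM in shNT 1 to 5 and at 83.3, 74.3, 77.8 and 45.1 CPM in shRNA 1 to 4. All shRNA samples but shRNA 1 lay under the shNT range of Cox6a2. Its log2 fold change was -0.91 with a standard error of 0.26 (FDR = 0.0642, edgeR quasi-likelihood test), beside -0.80 for Cox6a1, and 10.03% of its exon bases overlap Itgad on the other strand. The difference between the fold changes of the forms was not tested.

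The other tissue forms were near the lower limit of the data. Cox8b, the muscle form of subunit 8, was at 1.17, 1.29, 0.583, 1.01 and 1.16 CPM in shNT 1 to 5 and at 0.432, 0.497, 0.264 and 0.496 CPM in shRNA 1 to 4. Its log2 fold change of -1.28 was the most negative of all members, beside -0.87 for Cox8a, and its groups did not overlap. The testis form Cox6b2 (-0.14) and the muscle form Cox7a1 (-0.84) averaged 1.38 and 6.20 CPM per kilobase in shNT, against 1824 and 717 CPM per kilobase for Cox6b1 and Cox7a2, whose log2 fold changes were -0.87 and -0.86. Cox7a2l, a related protein of respiratory supercomplexes, had -0.55.

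A pair of the low genes went against the rest in shRNA 4. Cox4i2 was at 0.853, 1.61, 0.377, 0.656 and 0.878 CPM in shNT 1 to 5 and at 0.166, 0.213, 0.211 and 2.07 CPM in shRNA 1 to 4. Ndufa4l2, a relative of Ndufa4, was at 2.95, 5.28, 1.13, 3.68 and 2.16 CPM in shNT 1 to 5 and at 1.16, 0.497, 1.27 and 6.45 CPM in shRNA 1 to 4. For both genes 3 of the shRNA samples were near or below the lowest shNT sample and shRNA 4 was the highest of all 9. Ndufa4 itself was at 749.7, 1297, 872, 1212 and 1504 CPM in shNT 1 to 5 and at 793, 701, 652 and 333 CPM in shRNA 1 to 4, all but shRNA 1 under the shNT range, with a log2 fold change of -0.86.

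The c subunit of the membrane rotor is encoded by Atp5g1, Atp5g2 and Atp5g3, which give the same mature protein. Atp5g3 was at 972, 1468, 1247, 1499 and 1890 CPM in shNT 1 to 5 and at 1071, 1003, 980 and 352 CPM in shRNA 1 to 4. Atp5g1 was at 389, 558, 458, 592 and 656 CPM in shNT and 416, 347, 356 and 203 CPM in shRNA. For Atp5g3 only shRNA 4 lay under the shNT range, and for Atp5g1 shRNA 2, 3 and 4 did. Per kilobase of transcript, Atp5g3, Atp5g1 and Atp5g2 averaged 1957, 113 and 36.5 CPM in shNT, where the value of Atp5g1 rests on an annotated transcript of 4715 bases, against 723 for Atp5g3 and 647 for Atp5g2. Atp5g2 was at 23.6 ± 5.40 CPM (SD, n = 5) and 15.4 ± 6.22 CPM (SD, n = 4). The log2 fold changes were -0.73, -0.68 and -0.61 for Atp5g3, Atp5g1 and Atp5g2.

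**Figure D3:**
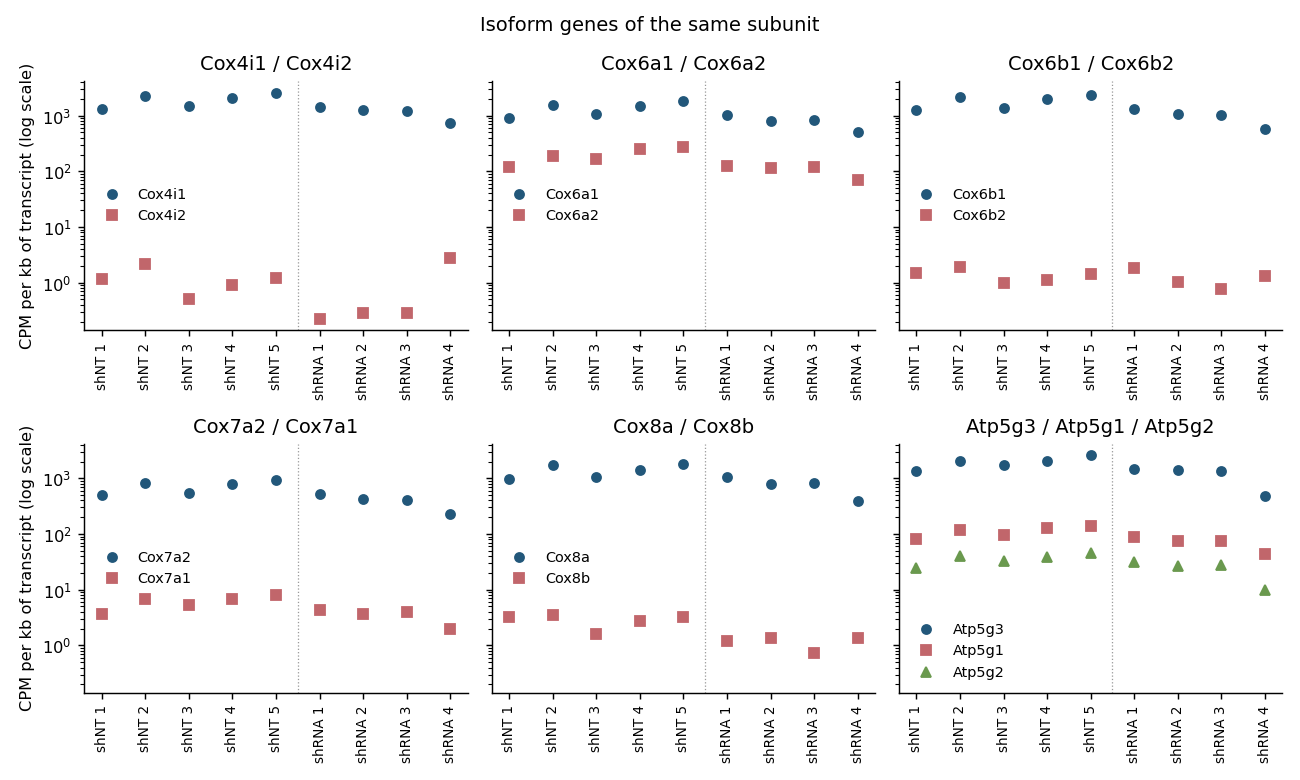
TMM-normalized CPM per kilobase of transcript (log scale) of genes for alternative forms of the same subunit in each of the 9 samples; each symbol is a gene. In the panels of Cox genes the widely expressed form lies above the tissue form in every sample, and Cox4i2 is highest in shRNA 4, where Cox4i1 is lowest.

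Within the members the size of the difference followed the length of the coding sequence. The Spearman correlation of the log2 fold change with coding length was 0.80 over the 85 genes and 0.88 over the 80 genes averaging at least 10 CPM, and 0.18 with the mean CPM over the same 80. These are across genes that share the same 9 libraries and are given as a description. Over all 13997 protein-coding genes tested the correlation with coding length was 0.54, so that shorter genes lay lower in the shRNA samples throughout the data.

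Against genes of like length the members still lay lower. The 23 members with a coding length up to 300 bases had a median log2 fold change of -0.87, and all 260 tested genes of that length had -0.56. For 301 to 600 bases the medians were -0.71 in 39 members and -0.40 in all genes of that length, and for 601 to 900 bases -0.55 in 11 members and -0.23 in all genes. The 7 members of 1201 to 1800 bases had -0.38 where all genes of that length had 0.08. Of the 23 shortest members 21 were lower at an unadjusted p under 0.05, as were 56.2% of all genes up to 300 bases. After a correction for the trend with coding length over all protein-coding genes, chosen after seeing the data, the median log2 fold change of the members was -0.39, and after a correction for exon length it was -0.48.

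**Figure D4:**
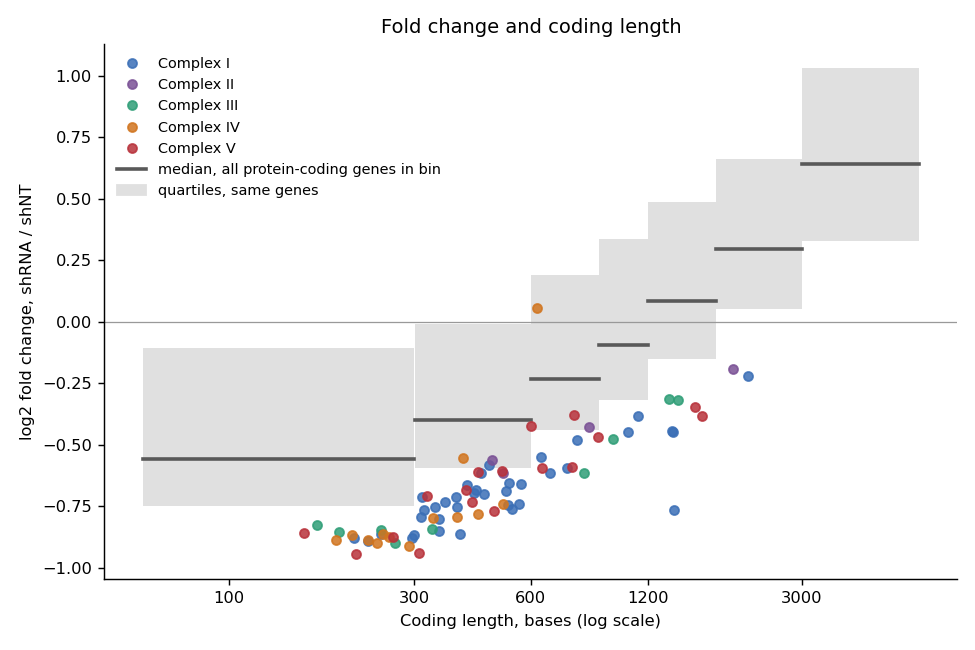
Log2 fold change of shRNA over shNT against coding length (log scale) for the 80 OXPHOS genes averaging at least 10 CPM, coloured by complex; grey lines are the medians and grey boxes the quartiles of all tested protein-coding genes in each range of length. Most of the points lie below the lower quartile of genes of like length.

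Other genes of the pathway were counted from lists of names. Over all genes 13.4% were lower and 20.7% higher at an unadjusted p under 0.05. Of 3 further ATP synthase proteins outside the name rule, 3 were lower at an unadjusted p under 0.05, with a median log2 fold change of -0.95: 2010107E04Rik (-0.996) and Usmg5 (-0.95), small proteins of the membrane part, and Atpif1 (-0.80), which inhibits ATP hydrolysis. Of 29 assembly factors tested 15 were lower and 0 higher, with a median of -0.38, from -0.80 for Ndufaf2 to 0.29 for Lrpprc, which stabilises mitochondrial mRNAs. Of 11 electron carriers and transporters of ADP and ATP, 6 were lower and 0 higher, with a median of -0.47, among them cytochrome c itself (Cycs, -0.71). None of these genes had an FDR under 0.05 in edgeR's quasi-likelihood test.

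Genes of the pathways upstream of OXPHOS and of its regulators are longer than the members, with median coding lengths of 1356 bases for the TCA cycle, 1278 for glycolysis and 1362 for the regulators, against 429 for the members. Of 17 genes of the TCA cycle and pyruvate dehydrogenase, 1 was lower (Pdhb, -0.42) and 2 were higher (Idh2, 0.69, and Suclg2, 0.83) at an unadjusted p under 0.05, with a median of -0.28, and without shRNA 4 none of the 17 passed (0 lower and 0 higher, edgeR quasi-likelihood test). Of 16 genes of glycolysis 2 were lower (Tpi1, -0.61, and Ldhb, -0.55) and 0 higher, with a median of -0.23. Of 13 genes for factors that regulate OXPHOS transcription, 1 was lower, the nuclear receptor Esrra (-0.45), and 3 were higher, the mitochondrial RNA polymerase Polrmt (0.62), Pprc1 (0.59) and the ETS factor Gabpa (0.42). Over all genes 13.4% were lower and 20.7% higher. The share lower was 12.5% in glycolysis and 7.69% in the regulators, where 4.16% of all genes of 1201 to 1800 coding bases were lower. Negative log2 fold changes were found in 13 of 17 genes of the TCA cycle, 11 of 16 of glycolysis and 7 of 13 regulators (42.1% of all genes). After the correction for coding length the medians were -0.32 for the TCA cycle, -0.33 for glycolysis and -0.14 for the regulators, against -0.39 for the members, and the differences between these lists were not tested. Nrf1, Yy1 and the coactivator Ppargc1a had log2 fold changes of 0.33, -0.0049 and -0.15 and did not pass an unadjusted p of 0.05.

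Other large groups of genes that cells use throughout also lay lower. Of 76 mitochondrial ribosomal protein genes 61 were lower and 0 higher at an unadjusted p under 0.05, with a median of -0.55, where 13.4% of all genes were lower and 20.7% higher. Of 82 cytosolic ribosomal protein genes 52 were lower and 0 higher, also with a median of -0.55, and of 38 proteasome genes 21 were lower and 0 higher, with a median of -0.40. The medians of these lists lay between those of all genes and of the OXPHOS members, and after the correction for coding length they were -0.31, -0.25 and -0.33, against -0.39 for the members. The differences between lists were not tested.

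**Figure D5:**
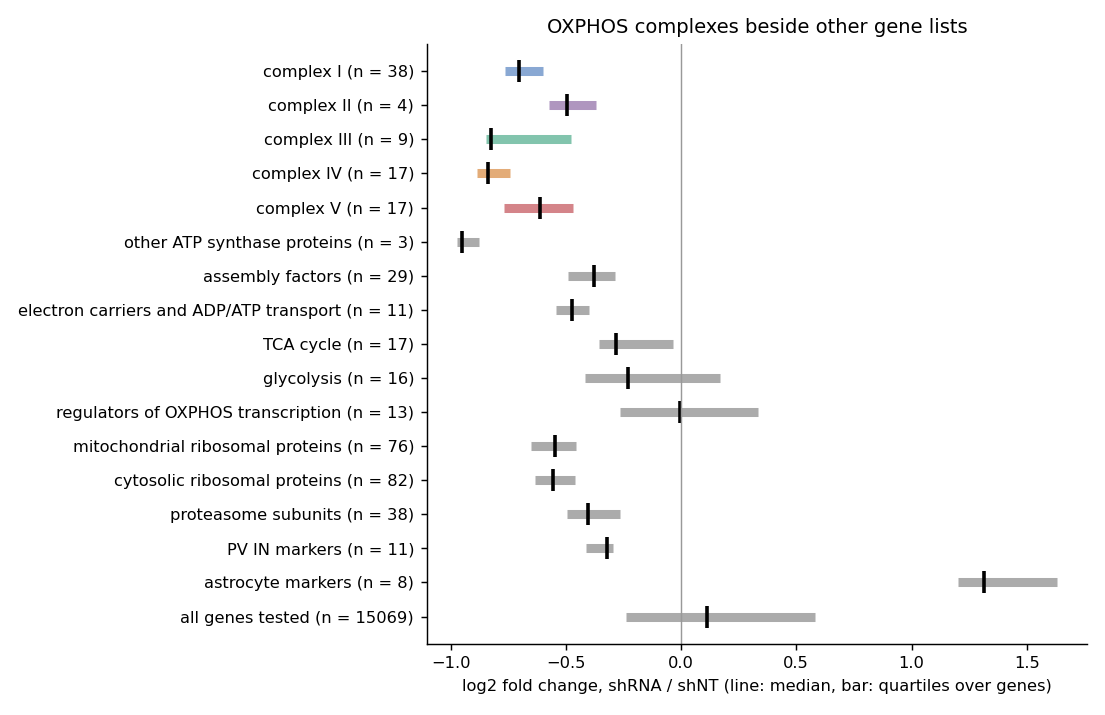
Log2 fold change of shRNA over shNT by gene list; the black line is the median and the bar spans the quartiles over the tested genes of each list, whose number is given beside its name. Without a correction for coding length, the medians of complexes I, III, IV and V, at -0.70, -0.83, -0.84 and -0.61, lie below those of the ribosomal and proteasome lists. The median of complex II, at -0.49, lies between the ribosomal lists (-0.55) and the proteasome list (-0.40). The astrocyte markers lie on the other side of 0, at 1.32 (0.35 without shRNA 4).

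Markers of several cell types differed between the groups. Their counts stand beside 13.4% of all genes lower and 20.7% higher at an unadjusted p under 0.05. Of 11 PV IN markers 11 had a negative log2 fold change (42.1% of all genes). Of these, 2 were lower at an unadjusted p under 0.05, Pvalb (-0.92) and Cplx1 (-0.70), with a list median of -0.32. After the correction for coding length the median of the PV IN markers was -0.52, against -0.39 for the members. Without shRNA 4 and uncorrected it was -0.12, against -0.59 for the members. The differences between these lists were not tested. The summed level of the PV IN markers was 9451 to 14597 CPM in shNT and 4581 to 11211 CPM in shRNA, lowest in shRNA 4 and, among shNT, in shNT 2. Of 8 astrocyte markers 7 were higher, with a median of 1.32 and a summed level of 493 to 916 CPM in shNT and 802 to 4248 CPM in shRNA. The astrocyte values rested on shRNA 4, at 4248 CPM, since shRNA 1, 2 and 3 were at 903, 802 and 1030 CPM beside 916 CPM in shNT 1, and without shRNA 4, a fit of the lists chosen after seeing the data, the median was 0.35 and 3 of 8 were higher. Of 8 pyramidal neuron markers 6 were higher (summed level 768 to 1687 CPM in shNT and 1738 to 2163 CPM in shRNA), as were 3 of 5 of DG granule cells (26.5 to 65.3 and 64.9 to 99.9 CPM), 5 of 6 of oligodendrocytes (759 to 2373 and 1442 to 3019 CPM), 3 of 4 of oligodendrocyte precursors (35.8 to 54.7 and 52.1 to 55.4 CPM) and 3 of 6 of microglia (29.5 to 71.3 and 62.6 to 74.4 CPM). Of 6 endothelial markers 0 were higher (68.2 to 233 and 41.1 to 556 CPM). Without shRNA 4 the endothelial median turned from 0.50 to -0.91 with 3 lower, 2 in place of 5 oligodendrocyte markers were higher, and the counts of the other lists stayed as given. In that fit 11.0% of all genes were lower and 14.3% higher. No marker on these lists was at 0 in a group. The part of other cell types in the OXPHOS values was not tested.

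Sample names fell into a set of 6, with 3 samples of each group, and a set of 3, with 2 shNT samples and shRNA 4, which the labels do not call batches. Within the set of 6 the median difference of the members in mean log2 level was -0.33, with 80 of 85 negative, and within the set of 3 it was -1.58, with 81 of 85 negative. In a fit to the set of 6 alone the median log2 fold change was -0.40 and 7 members, in place of 71, were lower at an unadjusted p under 0.05, where the share of all genes fell from 13.4% to 3.44%. With a covariate for the percentage of reads outside exons in all 9 samples, the median was -0.62 and 53 members were lower (10.6% of all genes).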

How the data were processed

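RNA was sequenced from anti-HA immunoprecipitates of CA3/CA2 with SMARTer v4 libraries and 50 bp reads. The authors aligned reads to mm9 (STAR) and deposited unnormalized counts of unique alignments per gene, made without regard to strand (HTSeq 0.6.0). The annotation they used is not given in the sources used here. Symbols, positions and lengths came from the GENCODE annotation of mm9, which named 37205 of 37620 identifiers. The members and gene lists were chosen with earlier results of these data known.

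A CPM of 1 in 1 or more samples was required. Counts were scaled by TMM and compared by the quasi-likelihood test of edgeR 4.0.16 (glmQLFTest, condition only, R 4.3.3), with Benjamini-Hochberg adjustment over all 15069. Lines for reads on no gene (9.76% to 27.2% of unique alignments) stayed out of library sizes. The call rule was an FDR under 0.05 and 1.5-fold. Levels are TMM-normalized CPM. Levels per kilobase use the transcript with the longest coding sequence. limma 3.58.1 and DESeq2 1.42.0 gave alternatives, as did other scaling, filters, blocks, a covariate, length corrections and each sample left out. The test was checked on simulated counts. Genes named were core subunits (1 gene is not reported here), sets of forms, and in complexes I, III, IV and V the 3 lowest and the highest log2 fold changes among genes averaging 10 CPM. Listed genes that are no members were named for the extremes of their list or where 3 or fewer passed, and others after their values were seen. P-values measure the spread between pooled samples, which may be technical. Intervals for counting error alone are not given, since the counts are large beside that spread, and the limit for 0 counts covers counting error only.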

Additional observations from a re-analysis of the deposited data

Results flagged for a closer look

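In 98 groups of values, of 4 shRNA or 5 shNT samples each, a sample lying far from the others of its own group was sought, and 9 were found where chance gives 4.9. In 6 of them the far sample was shRNA 4. The mean log2 level of the complex V genes relative to shNT was -1.37 in shRNA 4, against -0.50 to -0.35 in the other shRNA samples. Sdhb was at 241 CPM in shRNA 4 (375 to 396 CPM in the others), Uqcrfs1 at 254 CPM (442 to 467 CPM) and Atp5g3 at 352 CPM (980 to 1071 CPM), all on the low side. Cox4i2 was at 2.07 CPM in shRNA 4 (0.166 to 0.213 CPM in the others) and Ndufa4l2 at 6.45 CPM (0.497 to 1.27 CPM), both on the high side.

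In the other 3 the far sample was shNT 2. Sdha was at 615 CPM there (932 to 1026 CPM in the other shNT samples) and Cox4nb at 59.9 CPM (71.6 to 75.9 CPM). Reads outside annotated exons made up 18.6% of the uniquely aligned reads of shNT 2, against 9.76% to 11.3% in the other shNT samples.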

How the results depend on the processing

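The median log2 fold change of all members was negative under all 25 alternatives run, from -0.83 to -0.39, and 0 members were called higher under any of the 21 fits that give calls. The number called lower was 52 with the likelihood ratio test, 60 with DESeq2 and 52 with voom, and 0 to 35 with each sample left out in turn, with 35 reached without shNT 1. The replicate numbers do not pair the samples (correlations of -0.27, -0.64, 0.49 and -0.18 of their deviations), and a replicate block left 26 members (2.24% of all genes) lower at an unadjusted p under 0.05. The set of 6 samples left 7 (3.44% of all genes), with medians of -0.24, -0.46 and -0.46 in complexes II, III and IV. The number of members with groups that did not overlap was 21 in that set, where the share of all genes was 10.8%. It was 9 to 61 with each sample left out, 61 without shNT 1 (11.4% of all genes) and 54 without shRNA 1 (12.8%). Corrected for coding length, the medians of complexes I to V were -0.38, -0.30, -0.39, -0.41 and -0.38. Corrected for exon length, those of complexes III and IV were -0.46 and -0.46, with complex V then lowest at -0.56. Signs turned in Ndufs1 (0.029 in the set of 6), in Ndufs1, Sdha, Uqcrc2 and Atp5b with reads outside exons as a covariate (0.13, 0.10, 0.041 and 0.078), in Cox6b2 (0.00186 without shNT 2, 0.24 corrected for exon length, 0.31 for coding length), in Ndufa4l2 (0.068 for coding length) and in Cox4nb (-0.031 to 0.090 with each sample left out, -0.013 without shNT 2 and shRNA 4, -0.15 for exon length). The causes were not tested. Over all genes, edgeR's quasi-likelihood test called 0 in either direction with scaling by library size alone, in the set of 6, with reads outside exons as a covariate, and without shNT 3, shNT 4, shNT 5, shRNA 1 or shRNA 3 (519 to 2244 lower and 1010 to 3071 higher at an unadjusted p under 0.05), and 410 lower and 1007 higher without shNT 1. The median of all genes ran from -0.03 to 0.17 over the settings. Genes below 10 CPM, which include the tissue forms, are the least precise.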
